A study of Mus musculus with 6 samples.

Results

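The 10 genes described here belong to bone morphogenetic protein (BMP) and SMAD signalling: Bmp4, a BMP ligand; Id1, Id2, Id3 and Id4, the inhibitor of DNA binding genes; Smad6 and Smad7, the inhibitory SMAD genes; Bambi, a decoy receptor gene; and Tgif1 and Skil, corepressor genes of the SMADs. They were taken by gene symbol from the array's annotation, in which each had 1 feature, so that 10 of the 34760 features on the array are concerned. The members were chosen by role and name with earlier results of these arrays known. In particular, they were selected on the log2 differences between GCSF-labelled and control arrays. Their differences are therefore given as a description with standard errors and intervals. No p-value of a single member is printed, and the members' calls and counts under a p threshold below are a description too.

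The study measured transcripts on 6 single-colour arrays, each from embryonic stem cells (ESCs) of C57Bl/6 mice. Every sample, controls included, stably expressed the chimeric receptor GRgp-Y118F. Receptors of this kind take the outer, ligand-binding portion from the receptor for granulocyte colony-stimulating factor (GCSF) and the inner portion from gp130, through which leukaemia inhibitory factor (LIF) activates STAT3. In the Y118F form the docking tyrosine for SHP2, which links gp130 with ERK, is lost. There were 2 arrays labelled LIF/PD (LIF together with PD0325901, an inhibitor of the ERK-activating kinase MEK, at 1 uM), 2 arrays labelled GCSF, and 2 arrays of untreated control cells. The growth medium held 10% fetal bovine serum, and the treated cells spent 6 h without serum and then 1 h with the agent. The sources used here do not state whether control cells also spent time without serum. Serum carries BMP activity, and if the controls kept their serum, a difference from control cannot be told apart from serum withdrawal. Nothing in the labels says that samples of a group were separate cultures, or that the line was more than 1 clone.

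BMP ligands bind pairs of type I and type II receptor kinases, which phosphorylate SMAD1, SMAD5 and SMAD9. Together with SMAD4 these enter the nucleus and switch on, among others, the Id genes and, as negative feedback, the inhibitory SMAD genes. ID proteins lack a DNA-binding region and hold E proteins and other helix-loop-helix factors off DNA. In mouse ESCs, BMP acting through Id genes is known to work with LIF and STAT3 in keeping the cells undifferentiated, and ERK signalling is known to act on SMADs as well.

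Among transcripts that check the labels, Dusp6 and Spry4 went against the LIF/PD label, and Socs3 was high in both treated groups. Dusp6, an ERK phosphatase gene that ERK signalling itself switches on, had log2 intensities of 10.51 and 10.54 in the LIF/PD-labelled arrays, 8.93 and 8.94 in the GCSF-labelled arrays, and 10.47 and 10.52 in control arrays. Spry4, an ERK pathway inhibitor gene of the same kind, had 10.12 and 9.98 in the LIF/PD-labelled arrays, 8.12 and 8.22 in the GCSF-labelled arrays, and 9.97 and 10.04 in control arrays. A MEK inhibitor lowers both transcripts, and they were near the control level in the arrays whose label names the inhibitor. They were low in the arrays whose label names no inhibitor, and why they were low there was not tested. Socs3, the STAT3 feedback gene, read on the brighter of its 2 features, was high in both treated groups (10.42 and 10.32 in LIF/PD-labelled, 10.79 and 10.98 in GCSF-labelled, 7.77 and 7.73 in control arrays). Socs3 was lower in LIF/PD-labelled than in GCSF-labelled arrays, at a log2 difference of -0.51 (standard error 0.07, adjusted p = 0.0123, limma). The groups are kept as labelled, and LIF/PD and GCSF stand throughout for what the arrays are labelled.

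**Figure D1:**
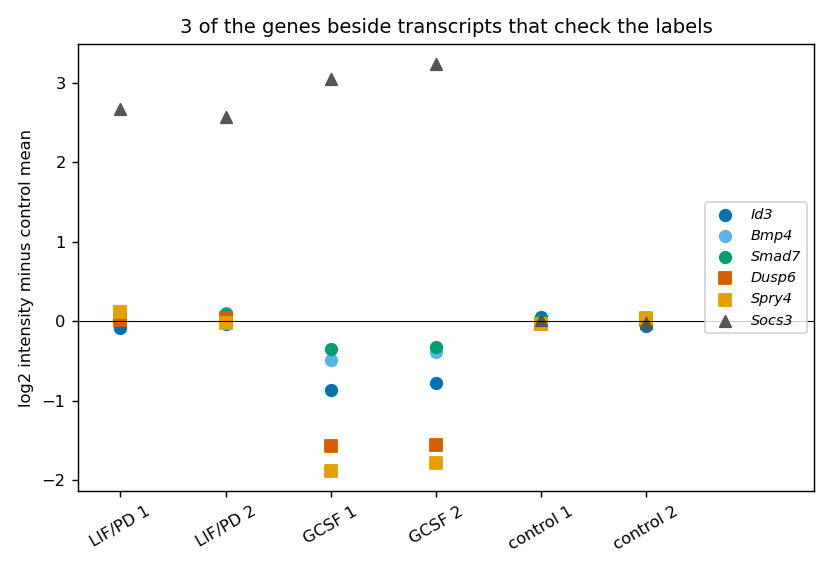
Log2 intensity minus the control mean (vertical axis) on each of the 6 arrays (horizontal axis) for Id3, Bmp4 and Smad7 (circles), the ERK feedback genes Dusp6 and Spry4 (squares) and the STAT3 feedback gene Socs3 (triangles). Socs3 is high on the 4 treated arrays, while the other 5 genes are low on the 2 GCSF-labelled arrays and near the control mean on the 2 LIF/PD-labelled ones.

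The cells carried the markers of ESCs. All 7 ESC markers (Pou5f1, Sox2, Nanog, Esrrb, Zfp42, Klf2 and Tdgf1) passed the filter on dim features, with median log2 intensities of 11.58 to 11.75 over the 6 arrays. Their summed linear intensity was 26460 to 26660 in LIF/PD-labelled arrays, 27850 to 27910 in GCSF-labelled arrays and 25760 to 25820 in control arrays. Of the 7, Tdgf1 was called, at 0.30 ± 0.03 for GCSF against control (adjusted p = 0.0019, limma) and -0.17 ± 0.03 for LIF/PD against GCSF (adjusted p = 0.0434). At an unadjusted p under 0.05 there were 4 of the 7 for GCSF against control, 2 for LIF/PD against control and 3 for LIF/PD against GCSF. The part of this shift in the results below was not tested. Of 6 fibroblast markers, 5 also passed, Col1a1 at a mean of 10.81 and Dcn at 9.63, so fibroblast transcripts were present in all groups. Their summed linear intensity was 5938 to 5950 in LIF/PD-labelled arrays, 5802 to 5854 in GCSF-labelled arrays and 5960 to 5963 in control arrays. Of the 5 tested, 0 were called in any of the 3 comparisons by limma (1 at an unadjusted p under 0.05 for GCSF against control, 0 for LIF/PD against control and 1 for LIF/PD against GCSF), and their differences between GCSF-labelled and control arrays lay between -0.10 and 0.02. Which cells the BMP pathway transcripts came from was not tested, and in such bulk samples fewer cells of a type and less RNA per cell cannot be told apart. Endoderm markers gave summed intensities of 580.2 to 604.2 on all 6 arrays, and 3 of 5 passed the filter.

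Among the 10 genes, 4 fell in the GCSF-labelled arrays relative to control: Id3, Bmp4, Smad7 and Tgif1. The other 6 were not called, a call meaning an adjusted p under 0.05 by limma over the 16912 tested features, with Benjamini-Hochberg adjustment. All 10 genes passed the filter on dim features. Over all tested features 0.367% were called lower and 1.17% in either direction, and the genes' count is set beside this share without reading anything from it, since their values in this comparison were known when they were picked. The median log2 difference was -0.11 over the 10 genes and 0.008 over all tested features. In the LIF/PD-labelled arrays 0 of the 10 were called against control by limma (3 at an unadjusted p under 0.05), where 0.065% of all features were called and 6.59% had an unadjusted p under 0.05. Between the treated groups, the same 4 genes were called higher in LIF/PD-labelled than in GCSF-labelled arrays and 0 lower, beside 0.402% higher and 0.846% in either direction over all features. This comparison uses the same GCSF-labelled arrays on which the genes were picked, so nothing is read from this count either. The arrays of the groups compared did not overlap for 5 of the 10 genes between LIF/PD-labelled and control arrays (38.4% of all tested features), for 7 between GCSF-labelled and control arrays (41.8%) and for 7 between LIF/PD-labelled and GCSF-labelled arrays (41.5%), so that a lack of overlap was common on these arrays. The 3 comparisons share arrays, so their counts are not independent of each other.

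**Figure D2:**
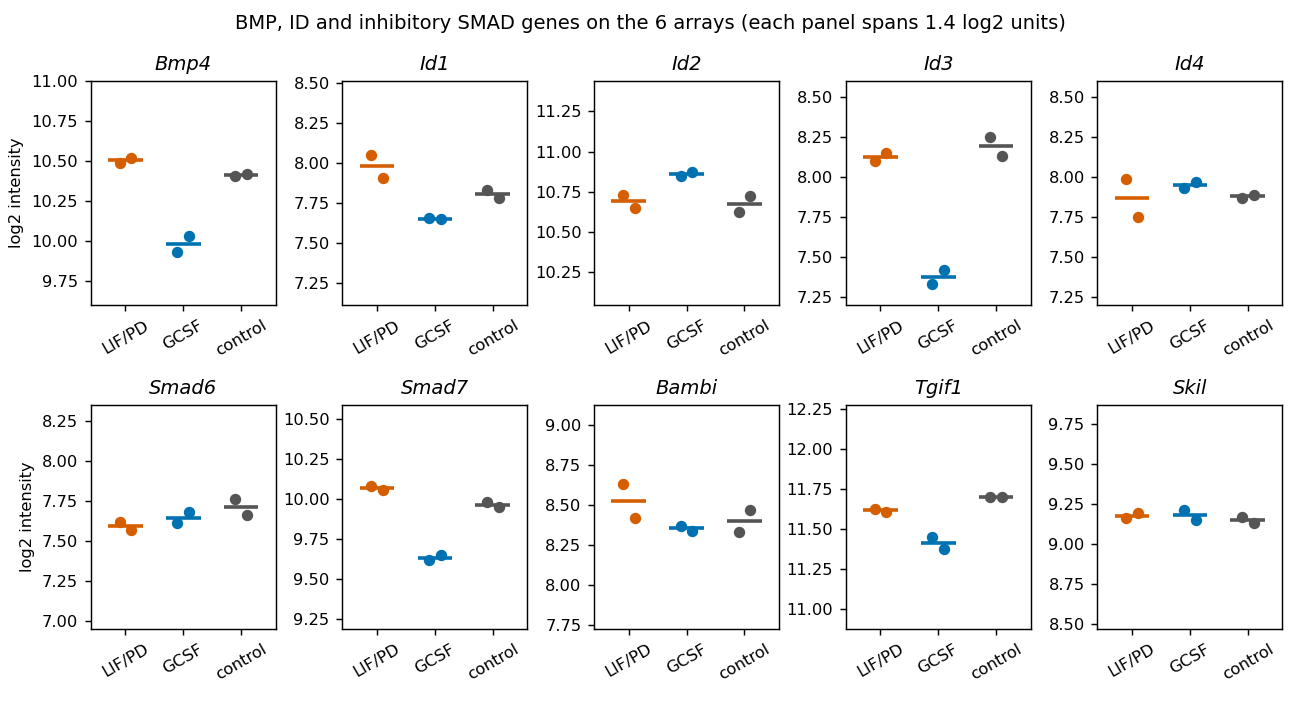
Log2 intensity (vertical axis, the same span in each panel) of the 10 genes on the 2 LIF/PD-labelled, 2 GCSF-labelled and 2 control arrays, with points for arrays and bars for group means. The GCSF-labelled arrays lie below all others for Bmp4, Id1, Id3, Smad7 and Tgif1 and above all others for Id2.

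Bmp4, the ligand, is one of the BMPs that ESC cultures can make themselves. Its log2 intensities were 10.49 and 10.52 in LIF/PD-labelled arrays, 9.93 and 10.03 in GCSF-labelled arrays, and 10.41 and 10.42 in control arrays. Both GCSF-labelled arrays lay below all 4 others, with a gap of 0.38 to the nearer control array. The difference between GCSF-labelled and control arrays was -0.44 ± 0.04 (standard error of the log2 difference from the fit, as for every ± below unless stated; n = 2 arrays per group), which is 1.35-fold lower. LIF/PD-labelled arrays differed from control by 0.09 ± 0.04, with a 95% interval of -0.01 to 0.18, and from GCSF-labelled arrays by 0.52 ± 0.04. Between LIF/PD-labelled and control arrays the values did not overlap either.

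Id3, the Id gene with the widest spread of group means (0.81), had log2 intensities of 8.10 and 8.15 in LIF/PD-labelled arrays, 7.33 and 7.42 in GCSF-labelled arrays, and 8.25 and 8.13 in control arrays. The GCSF-labelled arrays were low, and the LIF/PD-labelled arrays overlapped the controls. Id3 fell by 0.81 ± 0.07 in GCSF-labelled arrays relative to control, with a 95% interval of -0.97 to -0.66, or 1.76-fold. Its difference was number 9 from the lowest of the 16912 tested features in that comparison. Id3 was picked with this difference known, so nothing is read from its rank. It differed by -0.06 ± 0.07 between LIF/PD-labelled and control arrays (95% interval -0.22 to 0.09) and by 0.75 ± 0.07 between LIF/PD-labelled and GCSF-labelled arrays.

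Id1, the Id gene best known as a direct BMP target, had log2 intensities of 8.05 and 7.91 in LIF/PD-labelled arrays, 7.66 and 7.65 in GCSF-labelled arrays, and 7.83 and 7.78 in control arrays. The 3 groups did not overlap, with the LIF/PD-labelled arrays highest and the GCSF-labelled arrays lowest. No comparison of Id1 was called. The difference was 0.17 ± 0.07 for LIF/PD against control (95% interval 0.02 to 0.33), -0.15 ± 0.07 for GCSF against control (-0.31 to 0.01) and 0.32 ± 0.07 for LIF/PD against GCSF (0.16 to 0.48). The value for LIF/PD against control moved in both directions with single LIF/PD-labelled arrays: it was 0.10 without LIF/PD replicate 1 and 0.25 without LIF/PD replicate 2.

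Id2, which marks BMP responses in many tissues, ran the other way. Its log2 intensities were 10.73 and 10.65 in LIF/PD-labelled arrays, 10.85 and 10.87 in GCSF-labelled arrays, and 10.62 and 10.72 in control arrays. The GCSF-labelled arrays were the highest of the 6, and the other groups overlapped. Id2 was not called, at 0.19 ± 0.05 for GCSF against control (95% interval 0.08 to 0.30) and -0.17 ± 0.05 for LIF/PD against GCSF. Id4, known for its part in neural progenitors, was 7.93 and 7.97 in GCSF-labelled arrays and 7.87 and 7.89 in control arrays, while its LIF/PD-labelled arrays, at 7.99 and 7.75, spanned all other values. Its differences were 0.07 ± 0.08 for GCSF against control and -0.01 ± 0.08 for LIF/PD against control, with 95% intervals of -0.12 to 0.26 and -0.20 to 0.18. The Id genes thus differed in the sign of their difference between GCSF-labelled and control arrays, negative for Id3 and Id1 and positive for Id2 and Id4, with only that of Id3 called.

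Smad7, whose protein blocks both TGF-beta and BMP receptors and which those pathways induce as feedback, had log2 intensities of 10.08 and 10.06 in LIF/PD-labelled arrays, 9.62 and 9.65 in GCSF-labelled arrays, and 9.98 and 9.95 in control arrays. The 3 groups did not overlap, and the gap between GCSF-labelled and control arrays was 0.30. Smad7 fell by 0.33 ± 0.04 in GCSF-labelled arrays relative to control, or 1.26-fold. The difference was 0.10 ± 0.04 for LIF/PD against control (95% interval 0.01 to 0.19, not called) and 0.43 ± 0.04 for LIF/PD against GCSF. The call for GCSF against control was lost without control replicate 1, where the difference was -0.32.

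Smad6, which preferentially inhibits BMP signalling, gave no call. Its log2 intensities were 7.62 and 7.57 in LIF/PD-labelled arrays, 7.61 and 7.68 in GCSF-labelled arrays, and 7.76 and 7.66 in control arrays, so that the GCSF-labelled arrays overlapped both other groups. It differed by -0.11 ± 0.07 between LIF/PD-labelled and control arrays and by -0.07 ± 0.07 between GCSF-labelled and control arrays, with 95% intervals of -0.27 to 0.04 and -0.22 to 0.09. The first of these values was -0.06 without control replicate 1. Whether the difference of Smad6 was unlike that of Smad7 was not tested. Bambi, which encodes a receptor-like protein without a kinase that blocks ligand signalling, was 8.63 and 8.42 in LIF/PD-labelled arrays, 8.37 and 8.34 in GCSF-labelled arrays, and 8.33 and 8.47 in control arrays. Its GCSF-labelled arrays lay within the range of the controls, and its differences were 0.13 ± 0.08 for LIF/PD against control and -0.04 ± 0.08 for GCSF against control. The value for LIF/PD against control moved with single arrays: it was 0.02 without LIF/PD replicate 1, 0.23 without LIF/PD replicate 2, 0.05 without control replicate 1 and 0.20 without control replicate 2.

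Of the corepressor genes, Tgif1 was called and Skil was not, and the difference between their changes was not tested. Tgif1, which encodes a homeodomain protein that represses SMAD2 and SMAD3 targets, had log2 intensities of 11.63 and 11.61 in LIF/PD-labelled arrays, 11.45 and 11.38 in GCSF-labelled arrays, and 11.70 on both control arrays. Control arrays were highest and GCSF-labelled arrays lowest, without overlap between any of the groups. Tgif1 fell by 0.28 ± 0.03 in GCSF-labelled arrays relative to control, or 1.22-fold, and differed by -0.08 ± 0.03 between LIF/PD-labelled and control arrays and by 0.20 ± 0.03 between LIF/PD-labelled and GCSF-labelled arrays. This was the least stable of the 4 calls: that for GCSF against control was lost without control replicate 1 (-0.29) or control replicate 2 (-0.28), and that for LIF/PD against GCSF with any 1 array left out, at 0.17 to 0.24. Both calls were also lost when variances were moderated with no trend over intensity, and that for LIF/PD against GCSF without the filter on dim features or with only the 4 arrays compared. Skil, whose product SnoN binds SMADs and is degraded when TGF-beta signals, was 9.16 and 9.19 in LIF/PD-labelled arrays, 9.21 and 9.15 in GCSF-labelled arrays, and 9.17 and 9.13 in control arrays. All 3 groups overlapped, and the 95% interval of its difference was -0.08 to 0.13 for LIF/PD against control and -0.08 to 0.14 for GCSF against control.

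**Figure D3:**
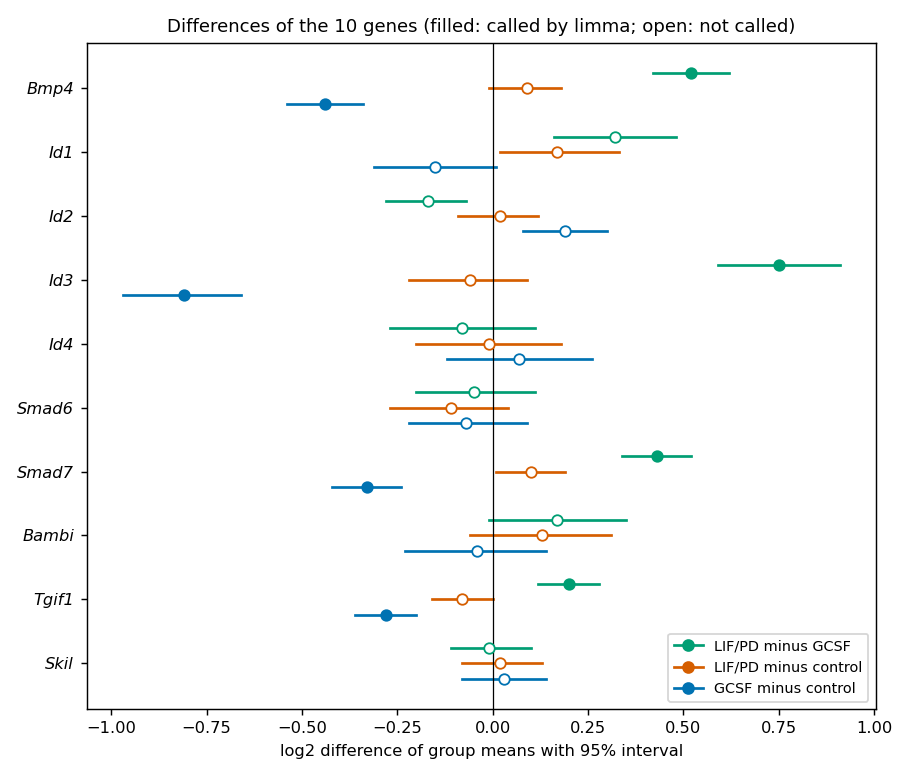
Log2 difference of group means (horizontal axis) with its 95% interval for the 10 genes in the 3 comparisons, filled where called by limma. Id3, Bmp4, Smad7 and Tgif1 are filled below 0 for GCSF minus control and above 0 for LIF/PD minus GCSF, and no gene is filled for LIF/PD minus control.

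Promoter sequences from RefSeq (GRCm38.p6) were at hand for 6 of the 10 genes, Id2, Id3, Id4, Smad6, Bmp4 and Tgif1. Those of Id3 and Bmp4, the genes with the widest spread of group means, are shown as the 250 bases before the annotated start. Capitals mark a match to one of the motifs searched, and Id3 has none. Id3 lies on the plus strand (chr4:136143572-136143821) and Bmp4 on the minus strand (chr14:46390670-46390919).
Id3: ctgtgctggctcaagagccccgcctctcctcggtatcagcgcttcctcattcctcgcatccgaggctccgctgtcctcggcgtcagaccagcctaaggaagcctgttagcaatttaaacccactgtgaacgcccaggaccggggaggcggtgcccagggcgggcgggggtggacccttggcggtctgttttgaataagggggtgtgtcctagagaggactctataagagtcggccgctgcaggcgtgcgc
Bmp4: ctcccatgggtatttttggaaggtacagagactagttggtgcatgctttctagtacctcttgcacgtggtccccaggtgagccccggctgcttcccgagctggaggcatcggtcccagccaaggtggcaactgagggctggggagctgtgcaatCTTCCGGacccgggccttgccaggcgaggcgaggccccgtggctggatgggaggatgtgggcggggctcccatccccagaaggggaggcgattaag
The match in Bmp4 is an ETS site, 96 to 90 bases before the start. ETS factors are a class of transcription factors, some of which ERK phosphorylates.

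The motifs were searched on both strands of these 250 bases: GGCGCC, a GC-rich element that SMAD1 and SMAD5 bind, TTCNNNGAA for STAT factors, CCGGAAG for ETS factors, TGACGTCA for cyclic AMP response factors, TGACTCA for AP-1, GCGTGGGCG for EGR1 and the CArG box of serum response factor. No motif contains another. GGCGCC was found in Id2 and Id4, a Tgif1 start site (1 of 5 annotated) held TTCNNNGAA, and the ETS site was found in Bmp4 alone of the 6. Over 32851 promoters of the same length the shares were 9.6% for GGCGCC, 7.0% for TTCNNNGAA and 6.9% for CCGGAAG. Counted by gene, as the 6 genes are here, the shares over 27025 genes were 10.8%, 8.1% and 7.8%. TGACGTCA (1.5% of all promoters), TGACTCA (4.5%), GCGTGGGCG (0.5%) and the CArG box (1.5%) were in none of the 6 genes. The 2 genes with GGCGCC were not among those called, but Smad7, which was called, had no promoter sequence to search. A match or its lack in this window says nothing of whether a factor binds.

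Other genes of the pathway were examined through 7 lists by role, of 95 genes, of which 91 were matched on the array and 77 passed the filter. The lists do not hold every gene of BMP, activin and Nodal signalling. Tdgf1, a Nodal pathway gene called above, was counted with the ESC markers and is in none of the 7 lists. Of the 77 genes only Tbx20 was called, higher in GCSF-labelled arrays than in control, and its call is described below. That is 1.30% of the 77 genes, beside 1.17% of all tested features. Against control, LIF/PD-labelled arrays had 0 of 77 called by limma (3 at an unadjusted p under 0.05), and against GCSF-labelled arrays 0 of 77 (6 at an unadjusted p under 0.05). For GCSF against control 11 had an unadjusted p under 0.05. Over all tested features that share was 6.59% for LIF/PD against control, 12.1% for GCSF against control and 11.8% for LIF/PD against GCSF. The median log2 difference of the 77 was 0.02 for LIF/PD against control, 0.02 for GCSF against control and 0.00 for LIF/PD against GCSF.

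Among 12 tested ligands of the BMP, GDF, TGF-beta and activin kind, 0 were called (2 at an unadjusted p under 0.05 by limma for LIF/PD against control, 3 for GCSF against control). The one with the smallest p was Inhbb, an activin subunit gene, at 0.17 ± 0.07 in LIF/PD-labelled and 0.27 ± 0.07 in GCSF-labelled arrays relative to control (adjusted p = 0.719 and 0.130, limma). Counting Bmp4, it alone of the tested genes on this ligand list was called, and whether it differed from each other ligand was not tested. Bmp4 was picked with its difference between GCSF-labelled and control arrays known, so nothing is read from its standing alone. Of the 19 listed ligands without Bmp4, 7 were below the filter and not tested. Differences of the 12 ranged from -0.17 to 0.27 for GCSF against control. Of 14 tested receptors and co-receptors on the list, which leaves out Tdgf1, 0 were called. By limma, 0 had an unadjusted p under 0.05 for LIF/PD against control, 2 for GCSF against control and 1 for LIF/PD against GCSF. Bmpr1a, a type I BMP receptor gene, was at 0.06 ± 0.04 in LIF/PD-labelled and 0.09 ± 0.04 in GCSF-labelled arrays relative to control (adjusted p = 0.808 and 0.362, limma).

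The 6 SMADs that carry the signal had 0 calls (0 and 0 at an unadjusted p under 0.05 by limma), and their differences lay between -0.15 and 0.07 in LIF/PD-labelled and between -0.07 and 0.10 in GCSF-labelled arrays relative to control. Smad9, one of the BMP-specific ones, was at -0.15 ± 0.08 and -0.02 ± 0.08 (adjusted p = 0.796 and 0.949, limma). Of 11 tested extracellular antagonists and modulators, 0 were called (0 and 1 at an unadjusted p under 0.05). Sost, which encodes sclerostin, stood at -0.15 ± 0.08 in LIF/PD-labelled and -0.22 ± 0.08 in GCSF-labelled arrays relative to control (adjusted p = 0.802 and 0.335, limma). Of 19 intracellular regulators, 0 were called. By limma, 0 had an unadjusted p under 0.05 for LIF/PD against control, 1 for GCSF against control and 2 for LIF/PD against GCSF. Rnf111, the gene of the ubiquitin ligase Arkadia, which degrades SnoN and SMAD7, was at -0.12 ± 0.04 for LIF/PD against GCSF (adjusted p = 0.336, limma). The E protein partners of ID proteins, Tcf3, Tcf4 and Tcf12, lay between -0.02 and 0.03 in both treated groups relative to control. None of the 3 had an unadjusted p under 0.05 by limma in any comparison, and the smallest over the 3 comparisons was that of Tcf3 for LIF/PD against GCSF (0.03 ± 0.04, adjusted p = 0.829).

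Of 12 tested genes known from other settings to respond to SMADs, Tbx20, a T-box factor gene of the developing heart, was called. Its log2 intensities were 7.57 and 7.51 in LIF/PD-labelled arrays, 7.68 and 7.65 in GCSF-labelled arrays, and 7.16 and 7.12 in control arrays. Both treated groups lay above control without overlap. Tbx20 rose by 0.52 ± 0.07 in GCSF-labelled arrays (adjusted p = 0.00617, limma) and was at 0.40 ± 0.07 in LIF/PD-labelled arrays (adjusted p = 0.160). It was not called without control replicate 2 or without GCSF replicate 1, when 0 of the 77 pathway genes were. Its direction was opposite to that of the 4 genes above.

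**Figure D4:**
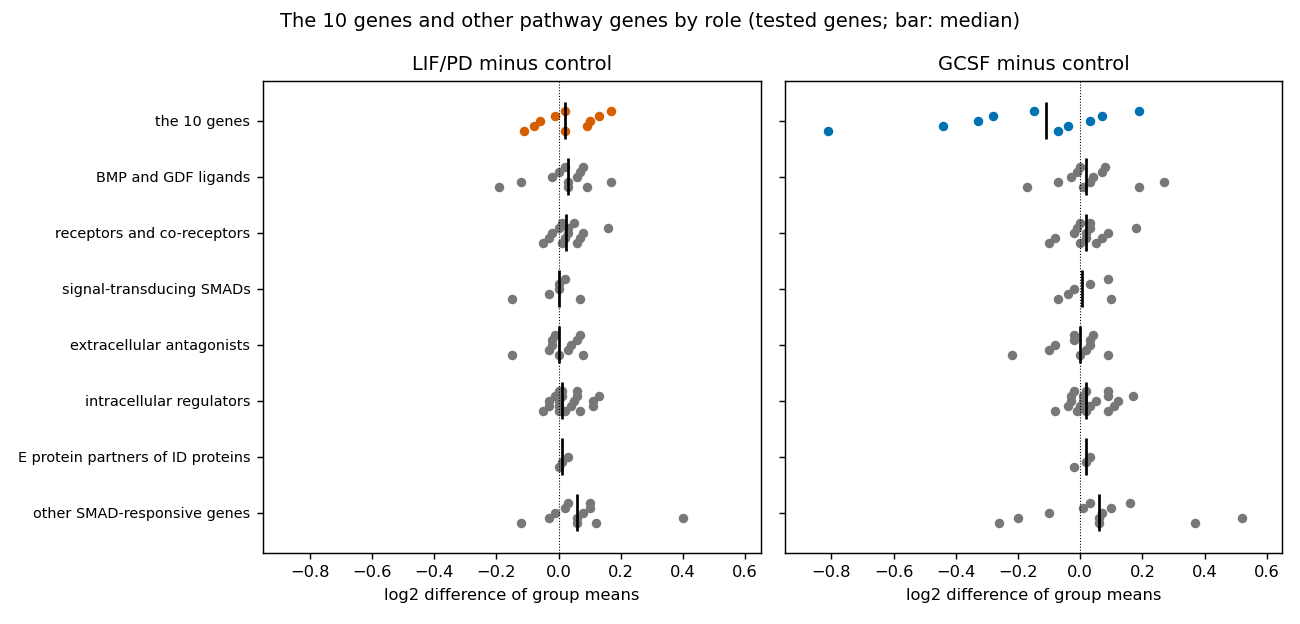
Log2 difference of group means (horizontal axis) for the 10 genes and for the 77 other tested pathway genes by role, with LIF/PD minus control on the left and GCSF minus control on the right; points are genes and bars are medians. For GCSF minus control Id3, which was picked with this difference known, lies at -0.81. The ligands, receptors, SMADs, antagonists, regulators and E proteins lie between -0.22 and 0.27, and the other SMAD-responsive genes between -0.26 and 0.52.

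The features most like Id3 and Bmp4 over the 6 arrays were found by Pearson's r among 273 features with 1 gene symbol whose group means spanned at least 0.3 on the log2 scale. For Id3 they were Tor3a (r = 0.9955), Dusp6 (0.9875), the immediate early gene Egr1 (0.9872), the mRNA decay gene Zfp36l2 (0.9871) and Spry4 (0.9856). For Bmp4 they were the chemokine gene Ccl7 (0.9936), Myc (0.9921), Mir674 (0.9907), Spry4 (0.9833) and N4bp3 (0.9832). All 9 differed by -1.83 to -0.31 between GCSF-labelled and control arrays and by -0.18 to 0.11 between LIF/PD-labelled and control arrays. These correlations share the same 6 arrays in 3 groups, so r mostly records that the GCSF-labelled arrays lay apart from the others. They are a description only. In GCSF-labelled arrays relative to control, the difference was -1.56 ± 0.04 for Dusp6 and -1.83 ± 0.06 for Spry4, and -0.81 ± 0.07 for Id3.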

How the data were processed

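Per the labels, a core facility handled the biotin-labelled total RNA. The authors deposited 1 value per feature and array, between 2.29 and 14.5, read here as log2 intensity from that range; the log base, background correction, summarization and normalization are not given in the sources used here. Values were used as deposited. Genes were named through the platform annotation (21640 features with 1 symbol, 1321 with several, which name no gene), with symbols of the other pathway genes updated through RefSeq gene IDs. The first 6573 features, without a gene, were left out as controls, and of the other 28187 a test was run on those whose mean reached the 40th percentile (6.70). limma 3.58.1 in R 4.3.3 fitted 1 mean per group to all 6 arrays, with an intensity trend in the variances (3 residual and 8.4 total degrees of freedom), two-sided tests, and Benjamini-Hochberg adjustment over the 16912 features. Since separate cultures are not stated, a p-value here reflects only variation among these samples, which may be technical, and the number of arrays limits the precision. The 10 genes and the pathway lists were chosen with earlier results of these data known. Named besides the 10 genes were, per list, called genes or else the one with the smallest p, the 5 features most like each of the 2 genes with the widest spread of group means, and the label and cell markers. Alternatives covered the replicate block, the arrays fitted, the filter, quantile normalization, median centring, the variance model, averaged features and each array left out. The fit was tested on simulated data.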

Additional observations from a re-analysis of the deposited data

How the results depend on the processing

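Of 408 differences of the 10 genes recomputed under other settings, 390 moved by less than the spread between replicates, 18 moved by more, and 0 called ones changed sign. The calls of Id3 and Bmp4 held under every alternative in which they were tested. Without an intensity trend in the variances 125 features were called for GCSF against control, 1 for LIF/PD against control and 71 for LIF/PD against GCSF, against 198, 11 and 143. With only the 4 arrays of the groups compared, LIF/PD against GCSF gave 82, and with the filter at the 60th percentile, which left out Id1, Id3, Id4 and Smad6, 0 of the 52 other pathway genes left were called, in place of 1 of 77; Tbx20 was among those left out, so its call was not tested there. With 1 array left out, the lone array of its group was taken to vary like the others, and the calls were 88 to 164 for GCSF against control, 1 to 7 for LIF/PD against control and 30 to 91 for LIF/PD against GCSF. Of the 10 genes 2 to 4 were then called for GCSF against control (2 without control replicate 1), 0 for LIF/PD against control and 3 for LIF/PD against GCSF, and of the other pathway genes 0 to 1 for GCSF against control. The replicate number as a block gave 195, 9 and 165 features and left the calls of the 10 genes at 4, 0 and 4. Deviations of same-numbered arrays correlated at only 0.01, 0.08 and 0.10, so the numbers were not taken as pairs. The control block median was 6.84 on GCSF replicate 1 and 6.58 to 6.71 on the other arrays, and without that array 4 of the 10 genes were called for GCSF against control. Small changes were often missed in data simulated with 2 arrays per group for GCSF against control on 16912 features. There, 23.4% of 1.2-fold, 77.9% of 1.5-fold and 94.3% of 2-fold changes were recovered. The number of arrays was not varied, and the simulated spreads came from estimates for single features. These shares therefore hold for that setting only.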

Other observations

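3 further genes of the list of SMAD-responsive genes are named here after their values were seen, none of them called by limma. Gata2, a haematopoietic and trophoblast transcription factor gene, had log2 intensities of 7.95 and 7.71 in LIF/PD-labelled arrays, 8.11 and 8.18 in GCSF-labelled arrays, and 7.76 and 7.79 in control arrays. It was high on both GCSF-labelled arrays, at 0.37 ± 0.08 relative to control (SE, n = 2 arrays per group, adjusted p = 0.105 with limma). Hes1, a Notch target gene, had 7.99 and 8.04 in LIF/PD-labelled arrays, 7.81 and 7.53 in GCSF-labelled arrays, and 7.93 on both control arrays. It was low on both GCSF-labelled arrays, which differed from each other by about as much as their mean did from control, -0.26 ± 0.09 (adjusted p = 0.288 with limma). Cdkn2b, a cell cycle inhibitor gene that TGF-beta induces in epithelial cells, had 9.58 and 9.38 in LIF/PD-labelled arrays, 9.15 and 9.30 in GCSF-labelled arrays, and 9.47 and 9.38 in control arrays. Its GCSF-labelled arrays were the lowest, at -0.20 ± 0.08 relative to control (adjusted p = 0.356 with limma).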
